A study of Mus musculus with 12 samples.

Results

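T-box transcription factors of the limb were followed in the autopod, the distal part of the limb that forms the hand or foot, of wild-type mouse embryos at stage E12.5. The members were chosen by name: every probe set whose platform annotation gave a single symbol, being Tbx2, Tbx3, Tbx4, Tbx5, Tbx15 or Tbx18. These are 6 of the 18194 genes with a single symbol on the arrays, and they had 14 probe sets on the Affymetrix MOE430 GeneChips, which come as an A and a B design (9 and 5 of them). RNA came from 3 forelimb samples, numbered 11, 13 and 25 in their titles, and 3 hindlimb samples, numbered 12, 14 and 26, each hybridised to both designs, which makes 12 arrays. All are wild type, and the labels name no strain, treatment or pooling. Whether the samples were separate embryos is not given, so the spread behind each p-value is that between these particular samples and may be technical. Precision is limited by 3 arrays per limb and design. On the A design, forelimb 11 was placed by the letter in its title, because its tissue label gives no limb. The title of hindlimb 12 on that design carries a B, while its description names the A design.

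T-box proteins bind DNA through a shared domain and switch target genes on or off. Tbx5 and Tbx4 are close relatives: Tbx5 is known for starting forelimb outgrowth and Tbx4 for supporting hindlimb outgrowth, in each case through Fgf10. Tbx2 and Tbx3 are repressors expressed along the margins of the limb bud and between the digits. Tbx15 and Tbx18 are repressors that recruit Groucho proteins and are known from limb and trunk mesenchyme. In the gene table of assembly GRCm38.p6, Tbx2 and Tbx4 were neighbours on chromosome 11, and Tbx3 and Tbx5 were neighbours on chromosome 5, with no other protein-coding gene between the members of either pair.

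The RefSeq promoter table held windows for 2 of the 6 genes, Tbx4 and Tbx18. The 250 bases before the Tbx4 start are shown because Tbx4 was the member that passed the test in the hindlimb direction. They lie at chr11:85896515-85896764 on the plus strand of GRCm38.p6, inside the span of the Tbx4 gene, so that this start belongs to a transcript that begins within the gene. Capitals mark the matches to the TATA core TATAA on either strand, which overlap each other.

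Tbx4: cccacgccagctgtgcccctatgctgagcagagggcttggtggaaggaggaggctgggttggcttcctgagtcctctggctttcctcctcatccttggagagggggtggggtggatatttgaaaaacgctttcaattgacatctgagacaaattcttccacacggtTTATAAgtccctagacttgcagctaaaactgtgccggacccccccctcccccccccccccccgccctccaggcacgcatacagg

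The first matched base lay 84 bases before the start. A TATAA match was held by 22.8% of the 32851 windows of this length. The T-box core GGTGTG, held by 16.3% of windows on either strand, was not among these letters, nor was the Pitx site TAATCC, held by 6.25%. The Tbx18 window, at chr9:87731261-87731510 on the minus strand, held none of the 3 motifs. G and C made up 58.4% of the Tbx4 window and 54.0% of the Tbx18 window.

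Signals below are MAS5.0 signals scaled to the same trimmed mean on every array. Differences are log2 hindlimb minus forelimb of signal + 32, with the standard error (SE) of a limma fit over all tested probe sets of a design, and n = 3 samples per limb throughout. This scale understates the change of dim probe sets. A probe set was tested when 3 or more of the 6 arrays of its design reached a signal of 100. Of the 14 T-box probe sets 11 passed that filter, 8 of 9 A array ones and 3 of 5 B array ones. The 3 below it all belonged to Tbx3. A level cannot be compared between probe sets or between the designs, and in whole tissue fewer expressing cells and less RNA per cell cannot be told apart.

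Tbx5 and Tbx4 were the members whose levels parted by limb. By the limma fit with Benjamini-Hochberg adjustment, 2 of the 8 tested T-box probe sets on the A array passed an adjusted p of 0.05. These were the 2 of Tbx5, where 0.0326% of the 15338 probe sets tested on that array passed. Of them, 1425694_at entered the test through its forelimb arrays alone. For 1425695_at 3 forelimb arrays and 1 hindlimb array reached 100, so its hindlimb arrays would not have brought it into the test. Neither call is therefore separate support. On the B array 1 of 3 passed, that of Tbx4, where 0.0117% of 17145 did. At an unadjusted p under 0.05 the T-box counts were 4 of 8 and 3 of 3, against 5.54% of all tested probe sets of the A design and 5.54% of those of the B design. Every hindlimb sample lay above every forelimb sample for 2 of the 8 T-box probe sets on the A array, where 4.94% of all did, and below them for 4 of 8, where 6.10% of all did. The matching counts on the B array were 1 of 3 (4.81% of all) and 1 of 3 (6.14% of all).

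Tbx5 was high in every forelimb sample and far lower in every hindlimb sample, where only sample 14 on 1425695_at reached the filter value of 100. On probe set 1425694_at its signal was 474.0, 479.1 and 554.6 in forelimb 11, 13 and 25, and 8.0, 13.9 and 9.4 in hindlimb 12, 14 and 26. The hindlimb samples all lay far under the filter value of 100 and every forelimb sample lay far above it. The means were 503 ± 45.1 (SD, n = 3) and 10.4 ± 3.05, and the difference was -3.65 ± 0.18 (SE, limma adjusted p = 7.75e-06). Set against the filter value in place of the hindlimb signals, the forelimb mean was at least 5.03-fold higher. The size of the log2 difference moved from -5.49 with a pseudocount of 1 to -2.45 with a pseudocount of 100, and the adjusted p stayed under 0.05 in each of the 16 alternative fits. This probe set passed the filter through its forelimb arrays alone, so its p-values in the filtered fits are no separate support. In the fit of all probe sets without the filter its limma adjusted p was 0.000283.

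The second Tbx5 probe set, 1425695_at, showed the same direction and varied in the hindlimb. It shares the arrays and the annotated source sequence of the first, so the probe sets are not independent measurements. Its signals were 1145.1, 1325.5 and 1380.9 in forelimb 11, 13 and 25, and 29.3, 173.8 and 29.7 in hindlimb 12, 14 and 26. Hindlimb 14 stood above the other hindlimb samples, at 13.5% of the forelimb mean, where the same sample was far under the filter on the first probe set. The difference was -3.83 ± 0.38 (limma adjusted p = 0.00441) and it became -4.42 without hindlimb 14, with the 2 other hindlimb samples averaging 29.5. It missed the threshold in 1 of the 16 alternative fits, that without the signal filter (limma adjusted p = 0.112, with 9.07e-07 to 0.0417 in the others). Of its arrays, 3 in forelimb and 1 in hindlimb reached 100, so it too entered the filtered fits through its forelimb arrays. Its p-values in those fits are no separate support. Nothing here shows which of the probe sets gives the truer level in hindlimb 14, and the cause of the gap was not tested.

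Tbx4 was higher in hindlimb, and its forelimb signals also lay above the filter value. Its B array probe set, 1456033_at, gave 1124.1, 1222.0 and 1251.3 in forelimb 11, 13 and 25, and 4603.7, 5557.8 and 4497.3 in hindlimb 12, 14 and 26. All forelimb signals were well above the filter value and all hindlimb signals were higher still. The means were 1199 ± 66.6 (SD, n = 3) and 4886 ± 584, a ratio of 4.07, and the difference was 1.99 ± 0.13 (limma adjusted p = 0.000167, 95% interval 1.71 to 2.27). It had the smallest p of all probe sets tested on the B array. It kept an adjusted p under 0.05 with each single sample left out and lost it in 1 of 16 alternatives, the fit without a trend in the variance prior (adjusted p = 0.0874, with 2.61e-05 to 0.00235 in the others).

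On the A array the Tbx4 probe set 1426321_at showed the same direction with a smaller ratio. Signals were 181.1, 147.8 and 195.9 in forelimb 11, 13 and 25, and 367.0, 584.8 and 532.4 in hindlimb 12, 14 and 26. The limbs did not overlap, and hindlimb 14 was the highest sample on either Tbx4 probe set. The means had a ratio of 2.83, and the difference of 1.33 ± 0.18 just missed the threshold (limma adjusted p = 0.0514, 95% interval 0.92 to 1.74). It ranked sixth by p among the 15338 probe sets. It passed in 5 of 16 alternative fits, whose limma adjusted p ran from 0.0188 to 0.222 in all. These were with quantile normalization, with array weights, with the values as deposited, with a filter at 200, and without hindlimb 12 (difference 1.52, adjusted p = 0.0188). The fit as deposited differs from the reported one only in a stricter filter and a larger pseudocount relative to the signals.

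**Figure D1:**
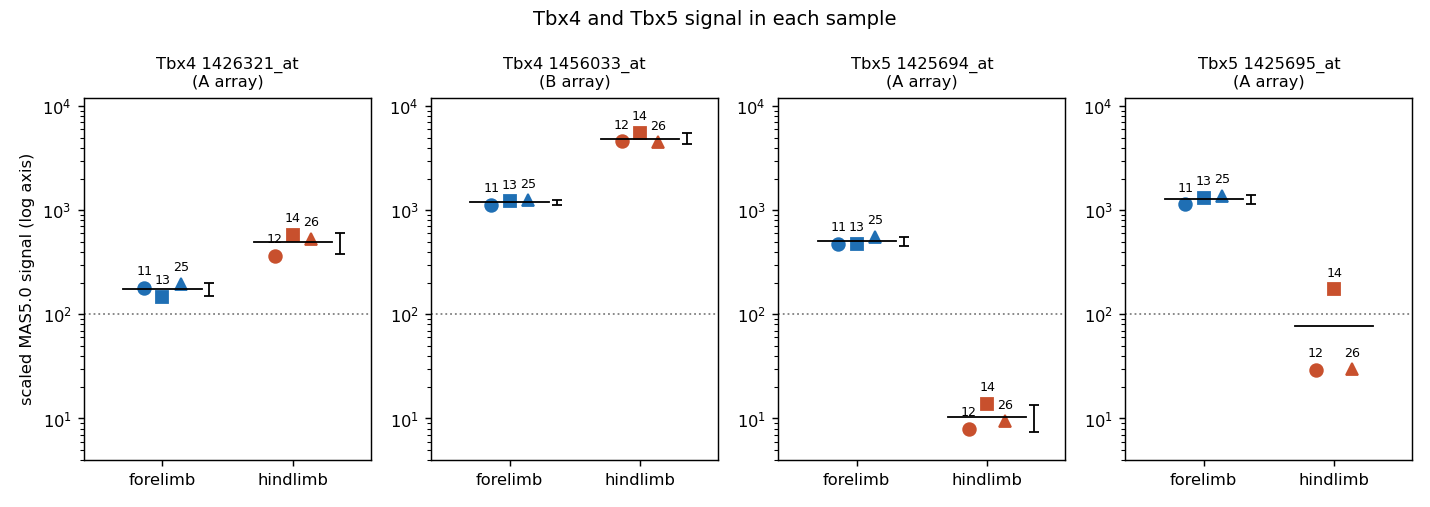
Scaled MAS5.0 signal (log axis) of each Tbx4 and Tbx5 probe set in the 3 forelimb (blue) and 3 hindlimb (orange) samples, numbered as in their titles. Horizontal lines are means, bars to the right are ± SD (not drawn for hindlimb on 1425695_at, where the SD of 83.3 exceeds the mean of 77.6), and the dotted line is the filter value of 100. Tbx5 falls below that line in hindlimb except in sample 14 on 1425695_at, while Tbx4 stays above it in forelimb.

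**Figure D2:**
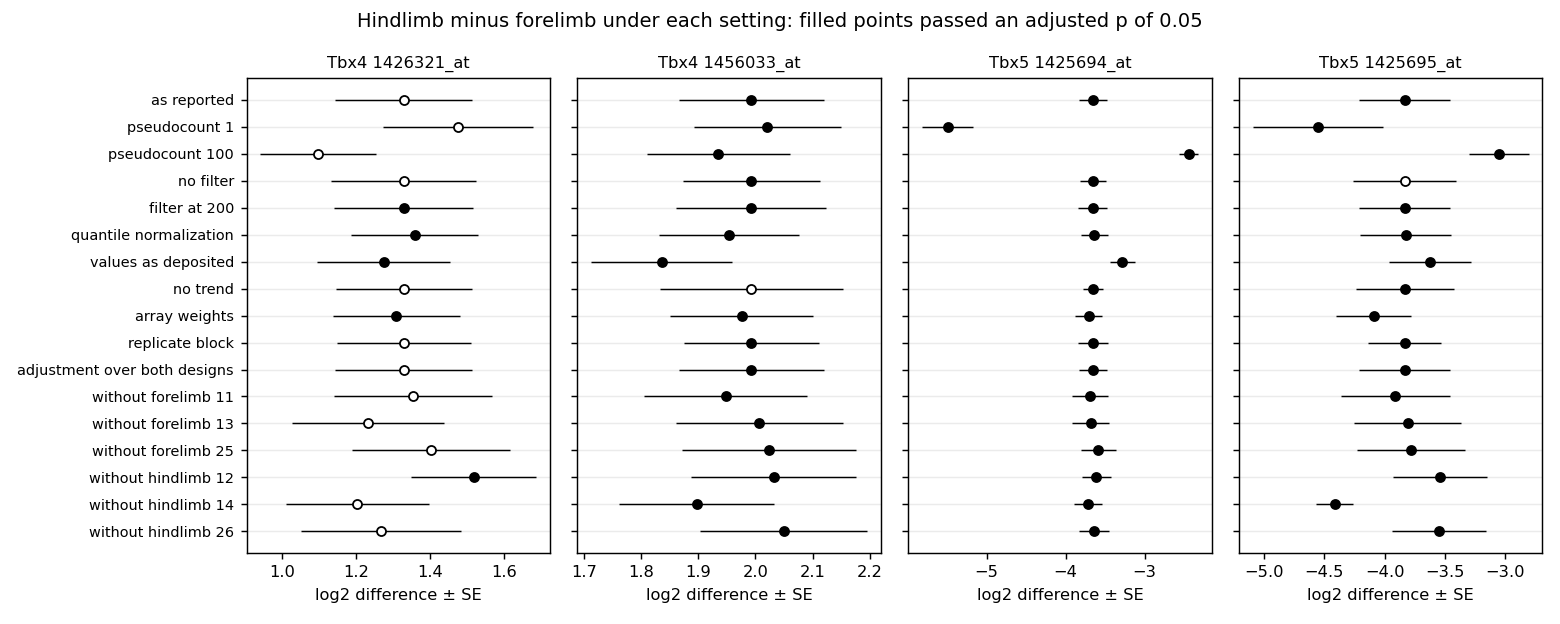
Log2 difference, hindlimb minus forelimb, of the 4 Tbx4 and Tbx5 probe sets (with SE bars) under the reported fit and 16 alternatives. Filled points passed an adjusted p of 0.05: 5 of 16 alternatives for Tbx4 1426321_at, 15 for Tbx4 1456033_at, 16 for Tbx5 1425694_at and 15 for Tbx5 1425695_at.

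The repressor pair Tbx2 and Tbx3 gave smaller values in opposite directions, none past the threshold. Tbx2, measured by the single probe set 1422545_at, had signals of 137.5, 136.5 and 134.2 in forelimb 11, 13 and 25, and 150.5, 203.1 and 152.1 in hindlimb 12, 14 and 26. All hindlimb samples lay above all forelimb samples, with hindlimb 14 again the highest and the other hindlimb samples close to the forelimb. The difference was 0.24 ± 0.17 (limma adjusted p = 0.962, 95% interval -0.13 to 0.62), and it was 0.125 without hindlimb 14.

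Tbx3 had 5 probe sets, of which 2 could be tested. Probe set 1437479_x_at of the B design gave 774.9, 502.8 and 799.2 in forelimb 11, 13 and 25, and 446.4, 448.5 and 444.2 in hindlimb 12, 14 and 26. The hindlimb samples were nearly equal (446 ± 2.14, SD, n = 3), whereas the forelimb samples were spread (692 ± 165), with forelimb 13 nearest to the hindlimb level. The difference was -0.57 ± 0.20 (limma adjusted p = 0.892, 95% interval -1.01 to -0.13), and it became -0.78 without forelimb 13 and -0.46 without forelimb 25. The suffix _x_at marks a probe set that may also bind other transcripts.

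The A array probe set of Tbx3, 1448029_at, gave 207.4, 199.7 and 199.9 in forelimb 11, 13 and 25, and 188.5, 183.4 and 159.4 in hindlimb 12, 14 and 26. Forelimb again lay above hindlimb without overlap, by a smaller step of -0.17 ± 0.15 (limma adjusted p = 0.971, 95% interval -0.50 to 0.16), which was -0.104 without hindlimb 26. The remaining Tbx3 probe sets were dim, with signals of 13.9 to 64.6 (1439567_at), 17.9 to 22.9 in all but hindlimb 26 (1444594_at) and 53.6 to 121.4 (1445757_at). Their forelimb and hindlimb means were 40.9 and 40.3, 20.5 and 20.5, and 79.0 and 76.2. Fitted without the filter they gave -0.068, -0.002 and -0.088, close to 0, where the 2 brighter probe sets were lower in hindlimb.

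Tbx15 and Tbx18 also differed in opposite directions, again without passing. Tbx15 on 1418755_at had signals of 690.9, 961.4 and 871.6 in forelimb 11, 13 and 25, and 797.5, 1237.3 and 1333.8 in hindlimb 12, 14 and 26. Hindlimb 12 lay within the forelimb range and the 2 other hindlimb samples above it. The difference was 0.38 ± 0.20 (limma adjusted p = 0.940, 95% interval -0.05 to 0.81), with 0.605 without hindlimb 12, 0.245 without hindlimb 26 and 0.253 without forelimb 11. On 1422195_s_at, whose suffix marks a probe set that can bind several transcripts, signals were 185.5, 168.2 and 181.1 in forelimb and 147.7, 210.4 and 279.9 in the same order of hindlimb samples. Hindlimb 12 was the lowest and hindlimb 26 the highest of all 6 samples there, as hindlimb 26 was on the first probe set. The difference was 0.18 ± 0.20 (limma adjusted p = 0.978), and it was -0.010 without hindlimb 26 and 0.388 without hindlimb 12.

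Tbx18 was the member nearest to the threshold after Tbx5 and Tbx4. On 1449871_at of the A array its signals were 580.8, 643.0 and 665.7 in forelimb 11, 13 and 25, and 391.3, 310.6 and 477.4 in hindlimb 12, 14 and 26. The limbs did not overlap, and the forelimb mean of 630 ± 43.9 (SD, n = 3) lay above the hindlimb mean of 393 ± 83.4. The difference was -0.66 ± 0.16 (95% interval -1.01 to -0.30), which ranked 62 by p among 15338 probe sets and did not pass (limma adjusted p = 0.456, 0.286 to 0.978 over the alternatives).

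Tbx18 1429974_at of the B design gave 3598.8, 4102.3 and 4787.9 in forelimb 11, 13 and 25, and 3339.5, 3794.5 and 2432.5 in hindlimb 12, 14 and 26. Hindlimb 14 exceeded forelimb 11, so the limbs overlapped. The difference was -0.40 ± 0.17 (limma adjusted p = 0.896, 95% interval -0.77 to -0.02), and it was -0.21 without hindlimb 26. The order of the hindlimb samples was turned between the arrays: sample 14 was the lowest and 26 the highest on the A array, and sample 26 the lowest and 14 the highest on the B array. In the forelimb the order was the same on either array, 11 below 13 below 25.

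**Figure D3:**
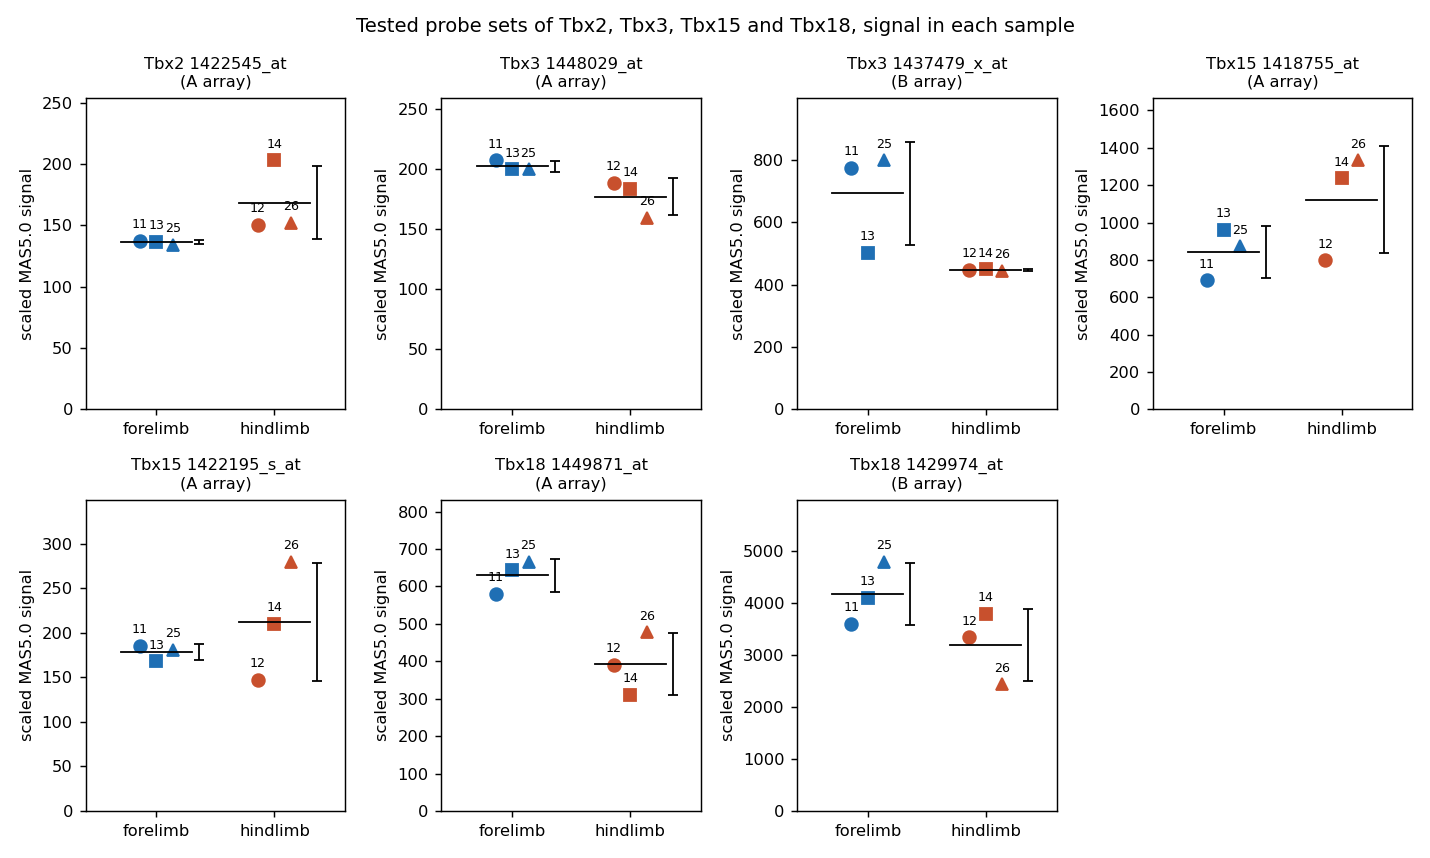
Scaled MAS5.0 signal (linear axes from 0) of the tested Tbx2, Tbx3, Tbx15 and Tbx18 probe sets in the 3 forelimb (blue) and 3 hindlimb (orange) samples, numbered as in their titles, with means as lines and ± SD as bars to the right. The limbs do not overlap for Tbx2, for either Tbx3 probe set and for Tbx18 1449871_at, and overlap for Tbx15 and for Tbx18 1429974_at.

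Read by relatives, each pair of close family members had differences of opposite sign on the tested probe sets: Tbx4 against Tbx5, Tbx2 against Tbx3, and Tbx15 against Tbx18, except that 1422195_s_at of Tbx15 was at -0.010 without hindlimb 26. Read by position, the neighbours shared a sign. Tbx2 (0.24) and Tbx4 (1.33 and 1.99) on chromosome 11 were positive, and Tbx3 (-0.17 and -0.57) and Tbx5 (-3.65 and -3.83) on chromosome 5 were negative. Of these, Tbx5 and the B array probe set of Tbx4 passed the test and the Tbx2 and Tbx3 values did not, so the shared sign is a description. The median difference of the 8 tested T-box probe sets was 0.008 on the A array, beside -0.009 for all tested probe sets, and that of the 3 on the B array was -0.395 beside -0.014. The central 95% of all differences ran from -0.46 to 0.34 (A array) and from -0.76 to 0.64 (B array). Tbx4 and Tbx5 lay outside that span, as did Tbx15 1418755_at and Tbx18 1449871_at, while the rest lay inside.

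**Figure D4:**
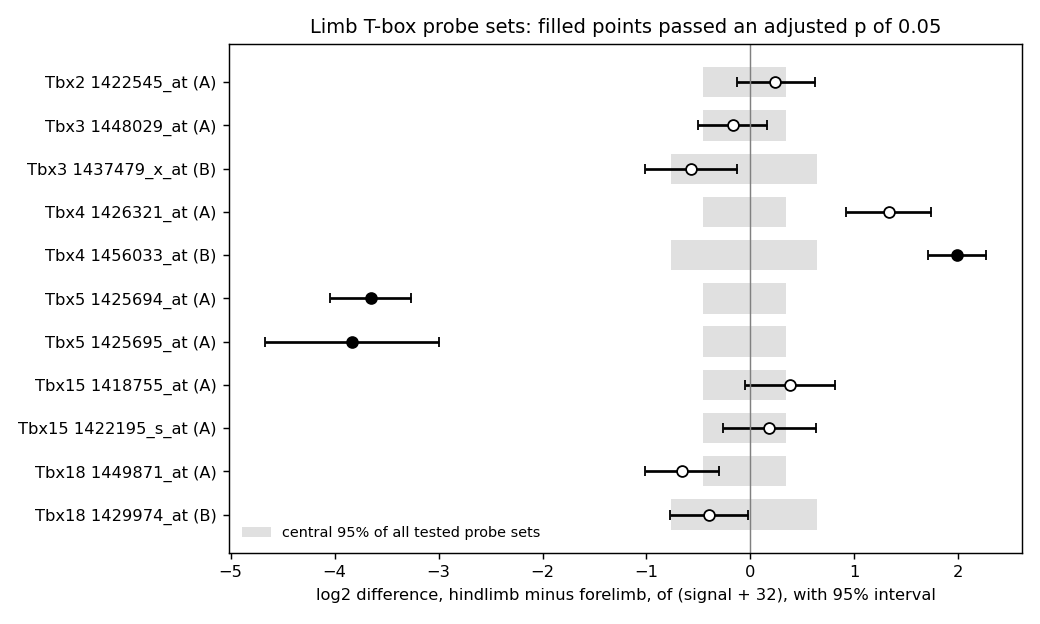
Log2 difference, hindlimb minus forelimb, of the 11 tested T-box probe sets with 95% intervals from the limma fit, the array design in brackets. Grey bars span the central 95% of all tested probe sets of that design, and filled points passed an adjusted p of 0.05: Tbx4 1456033_at at 1.99 and the Tbx5 probe sets at -3.65 and -3.83.

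Genes flanking the T-box pairs were looked at after the T-box values were known, taking the nearest 2 protein-coding genes on each side in the gene table. Of 16 such genes around the 4 loci 13 could be tested, with 23 probe sets, and 0 passed an adjusted p of 0.05 by limma (6 had an unadjusted p under 0.05, beside 5.54% of all tested probe sets on each design). The largest difference was at the Tbx18 locus, where Mrap2 had -1.33 with overlapping limbs. Of 3 Cep162 probe sets at that locus 1 had 0.56 with the limbs apart and the others -0.03 and -0.09. Next to Tbx4, Brip1, a DNA repair helicase, had -0.00 ± 0.19, and Ints2, a subunit of the Integrator complex, had 0.29 and 0.21, each with the limbs apart. Next to Tbx2, Bcas3 had 0.39 (A array, limbs overlapping) and -0.73 (B array, limbs apart). Next to Tbx3, Med13l, a Mediator kinase module subunit, had -0.50 and -0.37, with the limbs apart on the second (lowest adjusted p = 0.853). Next to Tbx5, Rbm19, a ribosome biogenesis factor, had 0.06 ± 0.14.

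**Figure D5:**
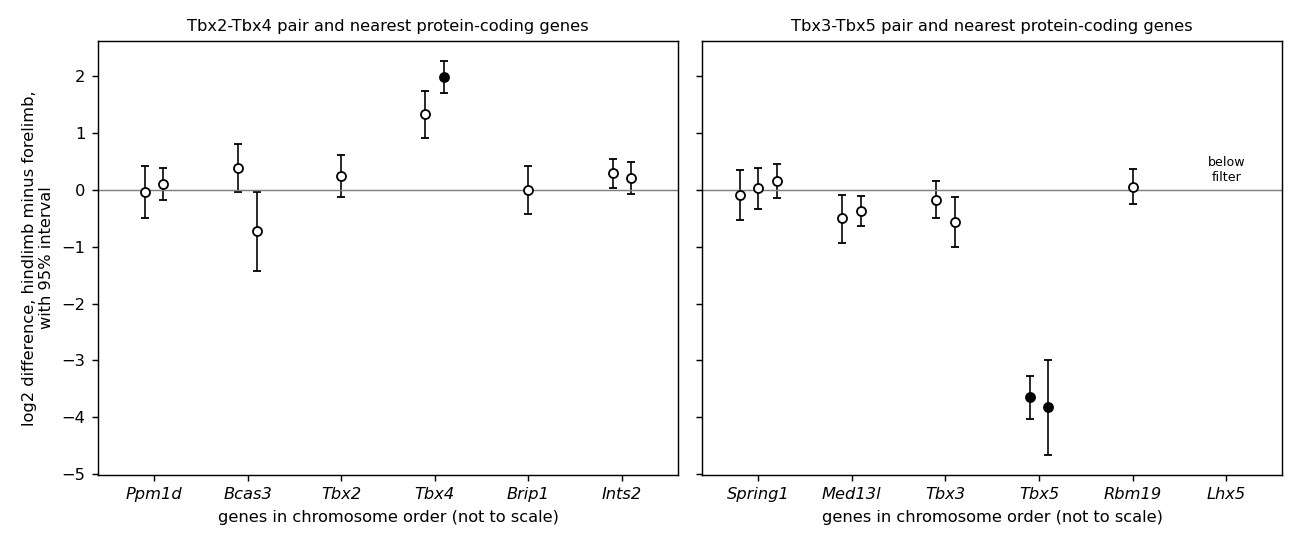
Log2 difference, hindlimb minus forelimb, with 95% intervals for the Tbx2 and Tbx4 pair on chromosome 11 (left) and the Tbx3 and Tbx5 pair on chromosome 5 (right) with the nearest 2 protein-coding genes on each side, in chromosome order and not to scale. Each point is a tested probe set, filled where the adjusted p was under 0.05; the filled points are Tbx4 (1.99) and Tbx5 (-3.65 and -3.83).

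The other genes of the T-box family gave no difference past the threshold. Their 17 probe sets covered 9 genes, of which 10 probe sets of 6 genes were tested, and 0 passed by limma (lowest adjusted p = 0.894; 1 had an unadjusted p under 0.05, an Mga probe set). Mga, a Max-binding repressor with a T-box, had differences of -0.03 and -0.04 (A array) and 0.38 and 0.05 (B array). Tbx1 had -0.28 with forelimb above hindlimb, Eomes -0.31, Tbx6 0.02, Tbx19 0.10 and 0.45, and Tbx20 -0.19. Tbx21, Tbx22 and Tbr1, known from immune cells, palate and brain, were below the filter. The lowest bound of any 95% interval among the tested probe sets was -1.01 (Tbx20), beside an interval of -4.67 to -3.00 for the second Tbx5 probe set.

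Among genes known to act upstream of Tbx4 and Tbx5 in the limb fields, 1 of 5 tested on the A array rose in hindlimb and 0 fell, and 0 of 3 passed on the B array. The one was Pitx1, the homeobox factor known to promote Tbx4 expression in hindlimb. Its signals on 1449488_at were 159.8, 99.0 and 102.3 in forelimb 11, 13 and 25, and 478.0, 678.1 and 501.3 in hindlimb 12, 14 and 26, with a difference of 1.95 ± 0.19 (limma adjusted p = 0.00441). The second Pitx1 probe set, 1419514_at, passed the filter through its hindlimb arrays alone: its signals were 70.8, 71.4 and 82.0 in forelimb and 266.5, 430.0 and 261.8 in hindlimb, so its fit is no separate support. In each case hindlimb 14 was the highest sample, as it was for Tbx4. Among B array genes the smallest p belonged to Hoxc10, a posterior Hox gene (1.08 ± 0.24, limma adjusted p = 0.555), and Hoxa5, of the Hox groups known to act on Tbx5. The B array probe set of Hoxa5 gave -0.16 ± 0.14 and its A array probe set 0.54 ± 0.20, each with the limbs apart. The list medians were 0.349 and -0.049.

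Targets and partners of Tbx4 and Tbx5 held 0 of 9 tested A array genes and 0 of 5 B array genes past the threshold, with medians of -0.205 and -0.027. Fgf10, the growth factor that either gene is known to switch on, and Fgf8 were below the filter on the A array. The smallest p belonged to Gja1, the gap junction protein connexin 43 (0.27, with -0.13 to 0.18 on its other probe sets), and to the FGF receptor Fgfr2 (-0.30 and -0.20, and -0.04 on the B array). Among B array genes they belonged to Sall1, a zinc finger factor (0.33, and 0.04 on the A array), and Kat2b, a histone acetyltransferase (0.16, and -0.26 on the A array).

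The list around Tbx2 and Tbx3, with hedgehog, BMP and Iroquois genes, held 0 of 12 tested A array genes and 0 of 5 B array genes past the threshold. Its medians were -0.127 and 0.325. Bmp7, a BMP ligand, had -0.56 ± 0.15, with -0.41 and -0.35 on its other probe sets and the limbs apart on all of them, and Irx5 had -0.54 ± 0.17 (limma adjusted p = 0.552 and 0.633). Gli3, a hedgehog effector, had -0.28 and -0.19 (B array) and -0.32 (A array). Shh, the hedgehog ligand of the posterior limb margin, had on the B array 1.02 ± 0.48. Forelimb 11 stood apart at 57.1, the limbs overlapped because forelimb 13 (387.8) lay above hindlimb 26 (335.0), and the other signals ran from 295.7 to 537.8.

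Among the Groucho corepressors through which Tbx15 and Tbx18 act there were 0 of 6 tested A array genes and 0 of 2 B array genes past the threshold (medians -0.027 and -0.149). The smallest p belonged to Tle2 (-0.34 ± 0.17) and Tle3 (-0.21, with -0.34 and -0.18 on its other A array probe sets), and on the B array to Tle3 (-0.31) and Tle4 (0.01). The 95% interval was -0.72 to 0.05 for Tle2 and -0.44 to 0.45 for Tle4 on the B array, so equal levels were not shown.

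The tissue label was checked against markers: Hoxa13, Hoxd13, Hoxd12, Msx1 and Msx2, genes of the distal limb, were all above the filter on the A array, and their summed signals overlapped (forelimb 6310 to 7169, hindlimb 5226 to 7673). Of the genes of the more proximal limb, 2 of 4 were above the filter on the A array and 4 of 4 on the B array. Meis1 and Shox2 were below it on the A array. The summed signals of the proximal genes overlapped between limbs (551 to 696 against 540 to 773, and 3547 to 3972 against 2914 to 3657). Single arrays had 65.6% to 68.1% of all probe sets at 100 or more on the A design, and 72.7% to 75.5% on the B design. Passing the filter is thus common and does not by itself show that a distal or proximal gene was expressed. Of the marker lists of other cell types, none of whose genes passed by limma, surface ectoderm on the A array was higher in forelimb (6 of 6 genes above the filter, summed signal 3625 to 4826 against 2862 to 3420) and erythroid cells were higher in hindlimb (4 of 4 genes, 27999 to 30749 against 31420 to 34868). The limbs overlapped for ectoderm on the B array (794 to 1403 against 674 to 1268) and for the muscle, endothelium, macrophage and nerve lists on each array that held them. Cardiac markers, of interest since Tbx5 also marks heart, were below the filter for 3 of 4 genes on the A array, and the limbs overlapped in their sum (218 to 264 against 178 to 227). The 1 cardiac gene on the B array, Tnnt2, was higher in forelimb on its brightest probe set there (309 to 406 against 43.6 to 265.0). On the A array Tnnt2 was among the cardiac genes below the filter. No marker was at 0 on all arrays. For Gapdh, the log2 of the 3' over the 5' probe signal did not overlap between limbs on the A design (forelimb -0.239 to -0.078, hindlimb -0.299 to -0.263, exact two-sided permutation p = 0.1, the smallest that 3 against 3 samples can give) and overlapped on the B design (exact p = 0.8), as it did for beta-actin on either (exact p = 0.3 and 0.9). The part of these measures in the T-box values was not tested.

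Genes whose log2 values followed a member most closely over the 6 arrays of a design are named as a description, with Pearson's r; the points share the split by limb, and 20 to 49 of 11388 to 14110 other probe sets had an r over 0.95 with each member. For Tbx5 1425695_at they were Klf4, a zinc finger factor (0.998), Col1a1, a fibrillar collagen chain (0.993), and Ptpro, a receptor phosphatase (0.991), all with far smaller differences (-0.48, -0.83 and -0.40) that did not pass. For Tbx4 they were Golm1, Fam91a1 and Cd302 on the A array (0.981 to 0.983), and AU022252, A930005H10Rik and Insm2 on the B array (0.993 to 1.0). For Tbx18 they were Rad18, Sox4 and Flt4 on the A array (0.980 to 0.986), and 4930524O08Rik, 5730403I07Rik and Map3k2 on the B array (0.979 to 0.981). For Tbx3 they were Lnx1, Pfn2 and Anxa8 on the A array (0.990 to 0.994), and Pdzd8, 4921517D16Rik and Zfp276 on the B array (0.983 to 0.991). For Tbx2 they were Rnps1, Cox15 and Ncl (0.987 to 0.992), and for Tbx15 Rnps1, Ntmt1 and Ywhab (0.990 to 0.992).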

How the data were processed

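The values the authors deposited are intensities: MAS5.0 signals on a linear scale, 1 per probe set, per the labels (for forelimb 11 on the A design the label does not name the software). Their 2% trimmed mean was 350.1 on the A arrays and 70.0 on the B arrays. Detection calls were not used here. Each array was rescaled to a trimmed mean of 500, so the filter of 100 equals a deposited signal of 70.0 on the A design and 14.0 on the B design, where it is the laxer. Symbols came from the platform annotation, updated through a RefSeq gene table of GRCm38.p6. Control probe sets, 64 per design, did not enter the fits. The limbs were compared in limma 3.58.1 (R 4.3.3), separately for the A and B designs, with lmFit and eBayes (trend) on log2(signal + 32), two-sided, with Benjamini-Hochberg adjustment over all tested probe sets and a threshold of 0.05. The fit was also run on simulated arrays with planted changes and independent noise, and no result here rests on that run.

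The T-box members, gene lists and tests were chosen with earlier results of these data known. The text names every member probe set, every tested gene of the other T-box list, and from each further list the genes that passed or, where none did, the 2 with the smallest p on each design. It also names the 3 genes most correlated with the brightest tested probe set of each member on each design. List counts use the brightest tested probe set of a gene. Alternatives were the pseudocount (1 and 100), the filter (none, or at 200), the normalization (quantile, or the deposited scaling), a fit without the trend, array weights, a replicate block that joined consecutive sample numbers, p-values adjusted over the A and B designs together, and leaving out each sample with the filter kept from all 6 arrays. Figures were drawn with matplotlib 3.10.9.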

Additional observations from a re-analysis of the deposited data

How the results depend on the processing

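The T-box count on the A array (2) was 1 without the signal filter, and that on the B array (1) was 0 without the trend in the variance prior. It was 3 on the A array with quantile normalization, array weights, the values as deposited, a filter at 200 or without hindlimb 12, when 1426321_at of Tbx4 passed too. Over all probe sets the 5 calls of the A array became 1 without the filter, 14 with array weights and 8 with the replicate block, and ranged from 3 to 9 with a sample left out (9 without hindlimb 12, 3 without any other). The 2 calls of the B array became 1 without the filter, 0 without the trend and 4 with the block, and ranged from 1 to 4 (4 without hindlimb 12, 2 without forelimb 13, 1 without any other). The block paired consecutive sample numbers, which the labels do not call a pair. The deviations of these samples correlated at 0.08 to 0.21 on the A array and 0.00 to 0.05 on the B array. Those of the other forelimb and hindlimb combinations ran from -0.15 to 0.06 and from -0.06 to 0.02. Every consecutive pair lay above all others on the A array, while the ranges overlapped on the B array. Whether the samples were pairs is not known, and the block changed no T-box call. Of the 11 tested T-box probe sets, 1 turned its sign in any alternative, Tbx15 1422195_s_at, which gave -0.010 without hindlimb 26 and up to 0.388 with another sample left out. The cause was not tested. Tbx2, 1448029_at of Tbx3 and 1422195_s_at of Tbx15 have no value with a filter at 200, nor 1437479_x_at of Tbx3 as deposited. No order is read from the Tbx5 signals in hindlimb below the filter.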
